A study of Mus musculus with 75 samples.

Results

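The lysyl oxidase family comprises 5 genes in the mouse, *Lox*, *Loxl1*, *Loxl2*, *Loxl3* and *Loxl4*, which were taken by their Ensembl release 96 symbols from a lung count table of 55536 genes. All 5 members were among the 16221 genes that passed the filter on low counts. For 75 male C57BL/6JRj mice, polyadenylated RNA from the right inferior lung lobe had been sequenced, with 1 library per mouse. The age given for all mice is 12 to 14 weeks, which the study's methods state as the age at instillation. Age at collection therefore rose with the day after instillation. BLEO-IPF mice had received bleomycin (BLEO), a chemotherapeutic drug known for its lung toxicity, as a single intratracheal instillation, and only animals with a body weight loss of 5 to 17% had entered the study groups. Lungs were collected on day 7 (n = 10), days 14, 21, 28 and 35 (n = 12 each) and day 42 (n = 7), and the control group (CTRL) held 10 mice. The sample names call the controls saline mice, whereas the treatment protocol calls them untreated. No transgene or deletion was involved, and each day was a separate set of animals. The study's methods report mortality among BLEO-IPF mice over days 7 to 42, so that each group holds surviving mice. Its part in differences between days was not tested. The lung lobe holds many cell types, and in such bulk RNA a change in the number of cells of a type cannot be told apart from a change in RNA per cell.

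Lysyl oxidases are secreted, copper-dependent amine oxidases. They turn the side chains of lysine and hydroxylysine in collagens and elastin into aldehydes, which then react with neighboring chains to form the covalent cross-links that stiffen fibrils. Lox is released as a proenzyme that Bmp1 and related proteases cleave, Loxl1 is best known for the maintenance of elastic fibers, and Loxl2, Loxl3 and Loxl4 share scavenger receptor domains in front of the catalytic part. In the lung, these enzymes are known for their part in alveolar elastic fibers and in the cross-linked collagen of scar tissue.

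The 5 genes lie on 5 different chromosomes of the GRCm38 build. Because the counts of related genes can be mixed up where reads fit several copies, the coding sequences were compared. Identity over aligned coding bases was 62.5% between *Loxl2* and *Loxl3*, 62.8% between *Loxl2* and *Loxl4*, 60.8% between *Loxl3* and *Loxl4*, 58.4% between *Lox* and *Loxl1*, and 47.5 to 51.6% in the other pairs. The longest stretch that any pair of members shared without a mismatch was 32 bases (*Lox* and *Loxl1*), shorter than the 75-base reads. The window of 60 coding bases that was most alike in the family lay in the conserved catalytic part near the end of the protein. In this window 39 positions were identical in all 5 members and 40 in the 4 Lox-like members. The sequences of these 4 are shown because this window was the most alike over the family, and that of *Lox* is not shown. The 20 positions that differ among the 4 are in capitals, and each sequence is written 5′ to 3′ on the strand of its gene.
Loxl1, exon 5, chr9:58292569-58292628, minus strand: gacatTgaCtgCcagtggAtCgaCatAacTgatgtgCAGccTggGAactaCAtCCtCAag
Loxl2, exon 12, chr14:69690211-69690270, plus strand: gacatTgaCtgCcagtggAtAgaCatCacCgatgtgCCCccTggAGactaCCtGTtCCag
Loxl3, exon 12, chr6:83050385-83050444, plus strand: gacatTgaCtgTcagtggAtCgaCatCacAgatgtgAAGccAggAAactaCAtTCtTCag
Loxl4, exon 13, chr19:42597945-42598004, minus strand: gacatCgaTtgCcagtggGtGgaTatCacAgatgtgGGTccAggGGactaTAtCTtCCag
Even there, the capitals are spread over the whole window. The treatment of strand and of multiply mapped reads in the counting is not given in the sources used here. This matters most for *Loxl3*, whose exons overlap those of *Htra2*, a mitochondrial protease gene on the opposite strand, by 535 bases. *Htra2* had 129% as many counts as *Loxl3*, and its values are therefore given beside those of *Loxl3*.

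Total counts per mouse ranged from 9240291 to 14665247. Levels are in CPM, that is, counts brought to a common library total with TMM scaling factors, and changes are given as log2 fold changes (log2FC) with their standard error (SE). Adjusted p-values come from a quasi-likelihood F test (edgeR) fitted jointly to all 75 mice, with Benjamini-Hochberg adjustment over all genes tested and a threshold of 0.05. All days were compared with the same 10 CTRL mice. The p-values set each difference against the spread between mice, which was estimated over all groups together. By markers of other tissues, a mouse of day 28 (replicate 10) stood apart with summed levels of 1295 CPM for skeletal muscle and 1996 CPM for cardiac muscle markers, against at most 14.6 and 664.5 CPM in the other libraries. A CTRL mouse (replicate 9) had the highest sum of thymus markers, 37.2 CPM, against at most 28.9 CPM and a median of 11.2 CPM in the others. Leaving out either mouse changed no call of a member against CTRL or between the days compared here.

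*Lox*, *Loxl1* and *Loxl2* were upregulated from the first time point, and all 5 members were upregulated on days 14, 21 and 28. On day 14, *Lox* reached 8.33-fold, *Loxl2* 4.21-fold, *Loxl1* 3.20-fold, *Loxl4* 2.68-fold and *Loxl3* 2.37-fold the CTRL level in the fit. By day 42, *Loxl1* and *Loxl2* were still upregulated, at 2.01-fold and 1.95-fold. The number of members called was 3 of 5 on day 7, where 45.8% of all genes tested were called and 24.8% were upregulated. Day 14 had 5 of 5, with 62.4% of all genes called and 32.4% upregulated. The number stayed at 5 of 5 for day 21 (54.2% called, 28.3% upregulated) and for day 28 (43.3% and 24.1%). It was 3 of 5 on day 35 (29.9% and 16.9%) and 2 of 5 on day 42 (24.7% and 13.7%). The numbers of days 7, 35 and 42 depend on the fit. Fits of only the 2 groups compared called 5 of 5 for day 7, where they called 53.7% of all genes and 27% as upregulated, 5 of 5 for day 35 (37.1% and 20.5%) and 4 of 5 for day 42 (39.8% and 20.8%). No member was downregulated on any day. The 5 together took 0.0196% ± 0.0027 of all counts in CTRL mice (SD, n = 10), 0.0935% ± 0.0384 on day 14 (n = 12) and 0.0362% ± 0.0051 on day 42 (n = 7).

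**Figure D1:**
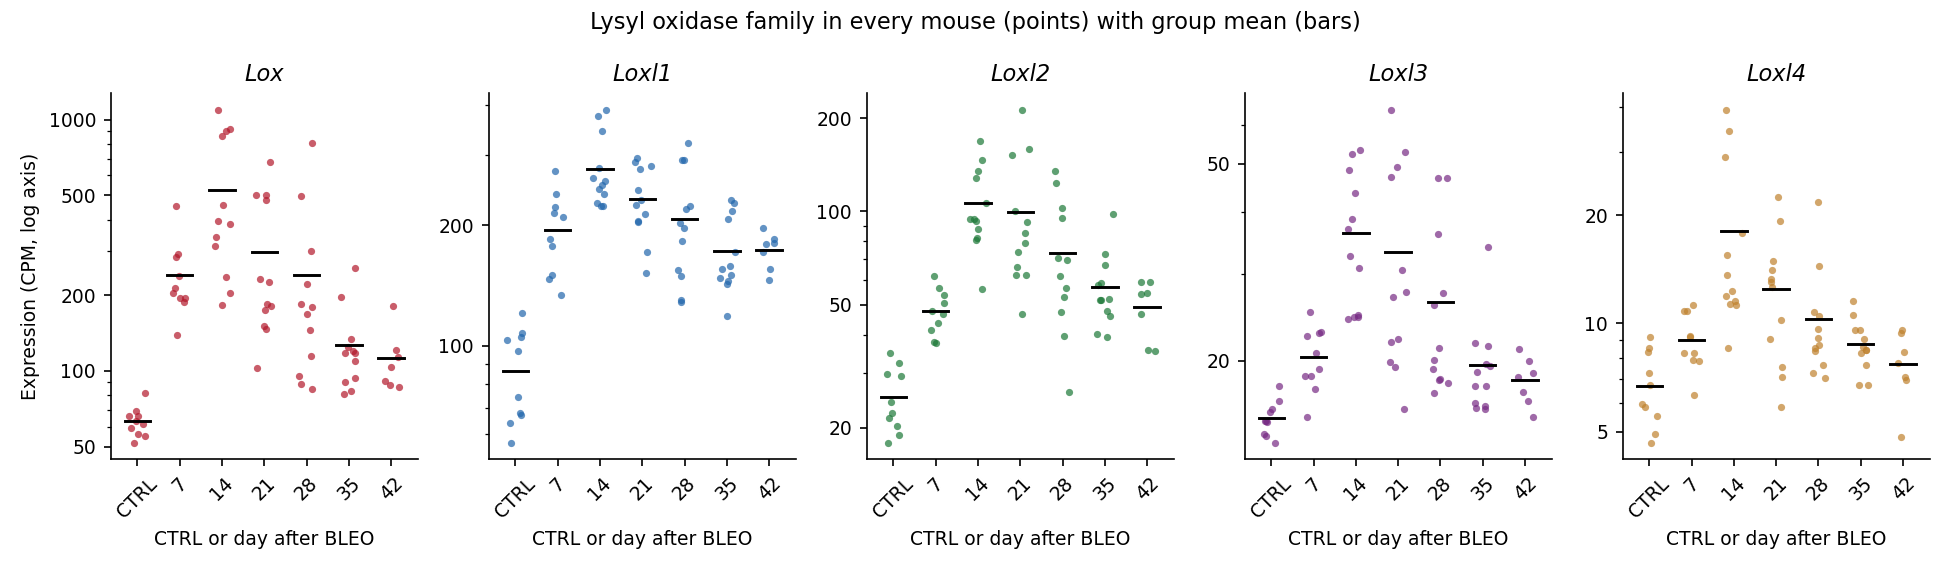
Expression of each lysyl oxidase family member (CPM, log axis) in every mouse of CTRL and of the 6 days after BLEO, with a bar at the group mean. All 5 members have their highest mean on day 14, and *Lox* spreads from 182 to 1091 CPM on that day.

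*Lox* (ENSMUSG00000024529), the founding enzyme of the family and a cross-linker of both collagen and elastin, had the largest log2FC of the 5 on days 7, 14, 21 and 28, but was below *Loxl2* on day 35 and below *Loxl1* and *Loxl2* on day 42. The gene was annotated at chr18:52516067-52529867 on the minus strand. Its lowest, median and highest level was 51.8, 62.4 and 81.4 CPM in CTRL mice, 139, 208 and 452 CPM on day 7, and 182, 390 and 1091 CPM on day 14. The corresponding values were 103, 205 and 678 CPM on day 21, 84.7, 174 and 804 CPM on day 28, 81.2, 118 and 256 CPM on day 35, and 86.4, 104 and 181 CPM on day 42. Every BLEO-IPF mouse of days 7, 14, 21, 28 and 42 lay above the highest CTRL mouse, as did 11 of 12 on day 35. The log2FC against CTRL was 1.93 ± 0.33 on day 7 (SE, adjusted p = 2.32e-06), 3.06 ± 0.34 on day 14 (adjusted p = 6.34e-12) and 2.23 ± 0.33 on day 21 (adjusted p = 3.55e-08). It was 1.93 ± 0.32 on day 28 (adjusted p = 1.93e-06), 1.01 ± 0.32 on day 35 (adjusted p = 0.0100) and 0.83 ± 0.35 on day 42 (adjusted p = 0.0720). On day 42 the groups thus did not overlap, yet the test over all mice was not passed. A fit of only the CTRL and day 42 mice, which takes its spread from these mice alone, gave a log2FC of 0.84 ± 0.12 with an adjusted p of 2.06e-05. The coefficient of variation between mice was 13.6% in CTRL, and at 61.9% on day 14, 63.8% on day 21 and 88.0% on day 28 it was the highest of the 5 members on these days. On day 14, 4 mice lay between 863 and 1091 CPM and the other 8 between 182 and 459 CPM. Among all genes tested, *Lox* ranked 158 by log2FC on day 14 and 262 on day 7. Of the neighbors in the order of its mean levels (day 14, 21, 28, 7, 35, 42, CTRL), only day 7 and day 35 differed (adjusted p = 0.0212).

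*Loxl1* (ENSMUSG00000032334, chr9:58287738-58313186, minus strand), the member tied to elastic fibers, rose less than *Lox* on day 14 and was still called on day 42. Its lowest, median and highest level was 57.2, 85.7 and 121 CPM in CTRL mice, 134, 197 and 273 CPM on day 7, and 223, 255 and 389 CPM on day 14. It was 152, 228 and 294 CPM on day 21, 129, 200 and 322 CPM on day 28, 119, 157 and 232 CPM on day 35, and 146, 180 and 198 CPM on day 42. All BLEO-IPF mice were above the highest CTRL mouse on each day except day 35, with 11 of 12. The log2FC was 1.18 ± 0.15 on day 7 (SE, adjusted p = 1.61e-09), 1.68 ± 0.15 on day 14 (adjusted p = 2.07e-15) and 1.01 ± 0.16 on day 42 (adjusted p = 2.11e-06). On days 21, 28 and 35 it was 1.43 ± 0.15, 1.27 ± 0.14 and 1.00 ± 0.14, with the highest adjusted p of these at 1.17e-07. In the order of its means (day 14, 21, 28, 7, 42, 35, CTRL) the last step to CTRL was the only one between neighbors that passed the test. The CTRL mice fell into 2 sets, as replicates 1 to 5 had between 96.9 and 121 CPM and replicates 6 to 10 between 57.2 and 74.5 CPM. No label names a difference between these mice, and both sets lay below every mouse of day 42. The mice of day 28 were split by number as well, with 220 to 322 CPM in replicates 1 to 5. Their replicates 6 to 12 had between 129 and 203 CPM, and no label names a difference there either.

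*Loxl2* (ENSMUSG00000034205, chr14:69609068-69695834, plus strand) is known to act on type IV collagen among others, and its log2FC on day 14 was exceeded in the family by that of *Lox* alone. Its lowest, median and highest level was 17.9, 23.3 and 34.9 CPM in CTRL mice, 37.6, 47.2 and 61.9 CPM on day 7, and 55.96, 94.5 and 169 CPM on day 14. It was 46.6, 82.0 and 212 CPM on day 21, 26.1, 65.7 and 135 CPM on day 28, 39.3, 52.003 and 97.9 CPM on day 35, and 35.5, 54.04 and 59.3 CPM on day 42. Only 1 BLEO-IPF mouse, on day 28, fell within the range of the CTRL mice. The log2FC was 0.92 ± 0.22 on day 7 (SE, adjusted p = 0.000379), 2.07 ± 0.22 on day 14 (adjusted p = 7.31e-13), 1.98 ± 0.21 on day 21 (adjusted p = 6.85e-12) and 1.54 ± 0.21 on day 28 (adjusted p = 2.49e-08). On day 35 it was 1.18 ± 0.21 (adjusted p = 1.12e-05), and on day 42 it was 0.96 ± 0.24 (adjusted p = 0.00159). *Loxl2* was also higher on days 21 and 28 than on day 7, by a log2FC of 1.06 ± 0.21 (adjusted p = 0.000186, with 7.5% of all genes higher) and 0.62 ± 0.20 (adjusted p = 0.0247, with 8.87% of all genes higher). *Loxl3* was higher on day 21 than on day 7 as well (log2FC 0.70 ± 0.18, adjusted p = 0.00464), but did not pass for day 28 (log2FC 0.37, adjusted p = 0.149). For *Lox*, the same comparisons gave log2FC of 0.30 ± 0.31 and 0.00049 ± 0.30 and were not passed, nor were those of *Loxl1* and *Loxl4*. Differences between members in these comparisons were not tested.

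*Loxl3* (ENSMUSG00000000693, chr6:83034173-83052562, plus strand), a member with known roles in palate and spine development, had the smallest log2FC of the 5 on day 14. Its lowest, median and highest level was 13.7, 15.1 and 17.8 CPM in CTRL mice, 15.4, 19.997 and 25.05 CPM on day 7, and 24.3, 34.8 and 53.4 CPM on day 14. It was 15.997, 27.2 and 64.3 CPM on day 21, 17.2, 20.6 and 46.9 CPM on day 28, 15.97, 18.4 and 34.03 CPM on day 35, and 15.4, 18.6 and 21.1 CPM on day 42. Day 14 was the only day without overlap with CTRL. The log2FC was 1.24 ± 0.18 on day 14 (SE, adjusted p = 3.08e-08), 1.11 ± 0.18 on day 21 (adjusted p = 6.49e-07) and 0.78 ± 0.18 on day 28 (adjusted p = 0.000433). It was 0.41 ± 0.19 on day 7 (adjusted p = 0.0720), 0.36 ± 0.18 on day 35 (adjusted p = 0.137) and 0.25 ± 0.21 on day 42 (adjusted p = 0.401). Fits of only the 2 groups compared called it on these 3 days as well, with log2FC of 0.40 ± 0.08, 0.37 ± 0.10 and 0.26 ± 0.07 (adjusted p = 0.000133, 0.00662 and 0.00607). The overlapping *Htra2* changed less, with 28.0 ± 2.64 CPM in the 10 controls (SD), 34.8 ± 5.604 CPM in the 12 mice of day 14 and a log2FC of 0.31 ± 0.07 (SE, adjusted p = 0.000126).

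*Loxl4* (ENSMUSG00000025185, chr19:42593982-42612813, minus strand), the least abundant member, had as few as 49 counts in a library. Its lowest, median and highest level was 4.66, 6.36 and 9.18 CPM in CTRL mice, 6.33, 8.70 and 11.2 CPM on day 7, and 8.52, 12.9 and 39.1 CPM on day 14. It was 5.85, 12.8 and 22.5 CPM on day 21, 7.07, 8.92 and 21.7 CPM on day 28, 6.72, 8.53 and 11.6 CPM on day 35, and 4.85, 7.78 and 9.58 CPM on day 42. Its range overlapped that of the CTRL mice on every day. The log2FC was 1.42 ± 0.21 on day 14 (SE, adjusted p = 1.72e-08), 0.89 ± 0.21 on day 21 (adjusted p = 0.000207) and 0.62 ± 0.21 on day 28 (adjusted p = 0.0120). It was 0.42 ± 0.22 on day 7 (adjusted p = 0.101), 0.38 ± 0.21 on day 35 (adjusted p = 0.158) and 0.20 ± 0.24 on day 42 (adjusted p = 0.582). Fits of only the 2 groups gave adjusted p-values of 0.00867 for day 7, 0.0123 for day 35 and 0.309 for day 42. No pair of neighbors in the order of its mean levels, or in that of *Loxl3*, passed the test.

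Across the family, the number of members whose BLEO-IPF mice all lay above all CTRL mice was 3 on day 7, where this held for 7.39% of all genes tested. Day 14 had 4 such members (9.46% of all genes) and day 21 had 3 (6.84%). For day 28 the number was 2 (2.1%), for day 35 it was 1 (2.43%) and for day 42 it was 3 (4.22%). *Lox*, *Loxl1* and *Loxl2* made up the 3 on days 7, 21 and 42.

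**Figure D2:**
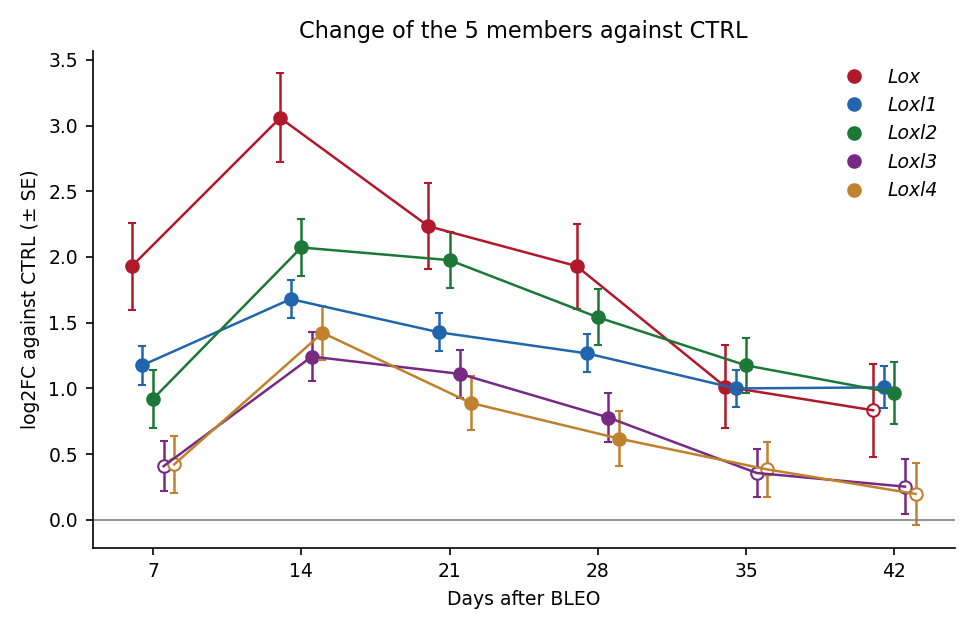
Log2FC against CTRL (± SE) for each member on days 7 to 42 after BLEO, with filled points for an adjusted p under 0.05 and open points otherwise. *Lox* peaks at 3.06 on day 14 and ends at 0.83 on day 42, while *Loxl1* ends at 1.01.

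Comparisons between days asked when the members rose and when they fell back. From day 7 to day 14 all 5 members increased, where 17% of the genes tested were called and 9.48% were higher. The log2FC of this step was 1.15 ± 0.21 for *Loxl2* (SE, adjusted p = 6.19e-05), 1.13 ± 0.31 for *Lox* (adjusted p = 0.00783), 1.00 ± 0.20 for *Loxl4* (adjusted p = 0.000341), 0.83 ± 0.18 for *Loxl3* (adjusted p = 0.000835) and 0.50 ± 0.14 for *Loxl1* (adjusted p = 0.00874). None of the weekly steps after day 14 was called for any member, with edgeR or with DESeq2. At an unadjusted p under 0.05 (edgeR), *Lox* and *Loxl4* were lower from day 14 to 21, *Loxl2* from day 21 to 28, *Lox* and *Loxl3* from day 28 to 35, and no member from day 35 to 42. At this threshold, 2769 of the 16221 genes tested passed from day 14 to 21 in either direction, and 1967 from day 21 to 28. From day 28 to 35 it was 2067 genes, and from day 35 to 42 it was 957. After adjustment, 1.03% of all genes tested were called from day 14 to 21, 0.727% from day 21 to 28 and 1.27% from day 28 to 35. For day 35 to 42 it was 0%, and DESeq2 called 0 as well. Over the whole interval from day 14 to day 42, all 5 members fell (34% of genes called, 18.8% lower). The log2FC was -2.22 ± 0.37 for *Lox* (adjusted p = 4.54e-06), -1.23 ± 0.23 for *Loxl4* (adjusted p = 3.49e-05), -1.11 ± 0.23 for *Loxl2* (adjusted p = 0.000157), -0.99 ± 0.21 for *Loxl3* (adjusted p = 0.000141) and -0.67 ± 0.16 for *Loxl1* (adjusted p = 0.000717). *Lox*, *Loxl1* and *Loxl3* had no overlap between days 14 and 42, which held for 2.68% of all genes tested in this direction. Of the mean rise over CTRL on day 14, 45.9% was left on day 42 for *Loxl1* and 29.7% for *Loxl2*. What was left was 14.0% for *Loxl3*, 10.7% for *Lox* and 8.92% for *Loxl4*.

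Whether the members changed by different amounts was tested within mice, by the log2 ratio of the counts of 2 members in the same library, which needs no scaling between libraries. A two-sided permutation test of the difference in mean ratio between each day and CTRL was run for 10 pairs on 6 days, exact for day 42 and with 100000 resamples otherwise. After adjustment over these 60 comparisons, 43 passed. The pairs are made from 5 genes and the days share the CTRL mice, so that the comparisons are not independent. Pairs of other genes were not tested beside them. The ratio of *Lox* to *Loxl3* increased on all 6 days, from a mean log2 ratio of 2.03 ± 0.20 over the 10 controls (SD) to 3.66 ± 0.51 on day 14 (n = 12) and 2.58 ± 0.33 on day 42 (n = 7, exact permutation test, adjusted p = 0.00191). *Lox* to *Loxl4* also increased on all 6 days, by 1.53 on the log2 scale on day 14 and by 0.59 on day 42 (exact permutation test, adjusted p = 0.0150). *Lox* gained on *Loxl1* on days 7, 14 and 21, by 0.68, 1.11 and 0.55, while on days 28, 35 and 42 the difference of 0.33, -0.07 and -0.25 did not pass. *Lox* gained on *Loxl2* on days 7 and 14 alone, by 0.93 (permutation test, adjusted p = 0.000969) and 0.76 (permutation test, adjusted p = 0.0036). *Loxl1* and *Loxl2* each gained on *Loxl3* and *Loxl4* on all 6 days. For *Loxl2* and *Loxl3* the ratio changed from 0.68 ± 0.43 in CTRL to 1.55 ± 0.23 on day 14 and 1.41 ± 0.31 on day 42. *Loxl1* lost against *Loxl2* on day 14, by -0.35 (permutation test, adjusted p = 0.00355), and on day 21, by -0.43 (permutation test, adjusted p = 0.0029). With medians in place of means, the ratios of *Lox* to *Loxl1* on day 21, *Lox* to *Loxl4* on day 35 and *Loxl1* to *Loxl3* on day 21 no longer passed (differences of 0.07, 0.33 and 0.60). *Loxl3* and *Loxl4* were the pair whose ratio passed on none of the days, with differences from -0.10 to 0.15. The CTRL sets described for *Loxl1* enter these ratios, since *Loxl3* was at 13.7 to 15.1 CPM in replicates 1 to 5 and at 15.1 to 17.8 CPM in replicates 6 to 10, and their part in the result was not tested.

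Levels were compared between members only per length, as counts per kilobase of merged exons. On this scale, in CTRL mice, *Loxl1* made up 52.8% ± 5.9 of the family (SD, n = 10), *Lox* 27.5% ± 5.4, *Loxl2* 9.46% ± 1.17, *Loxl3* 7.02% ± 1.60 and *Loxl4* 3.24% ± 0.49. *Loxl1* was the leading member in all 10 CTRL mice. On day 14 the share of *Lox* was 45.02% ± 10.2 and that of *Loxl1* 40.3% ± 8.95 (n = 12), with ranges of 30.4 to 59.04% and 26.4 to 54.98% that overlap widely. By day 42 *Lox* was at 25.4% ± 3.8 and *Loxl1* at 58.2% ± 3.6 (n = 7). The share of *Loxl3* was 3.65% ± 0.53 on day 14 and 4.39% ± 0.48 on day 42. These shares are a description without a test, and they depend on the length chosen. With the median length of the annotated transcripts in place of the merged exons, *Loxl3*, whose 5 annotated transcripts had a median length of 617 bases, had 34.1% and *Loxl1* 35.1% of the family in CTRL mice, and *Loxl1* led in 5 of the 10 CTRL mice.

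**Figure D3:**
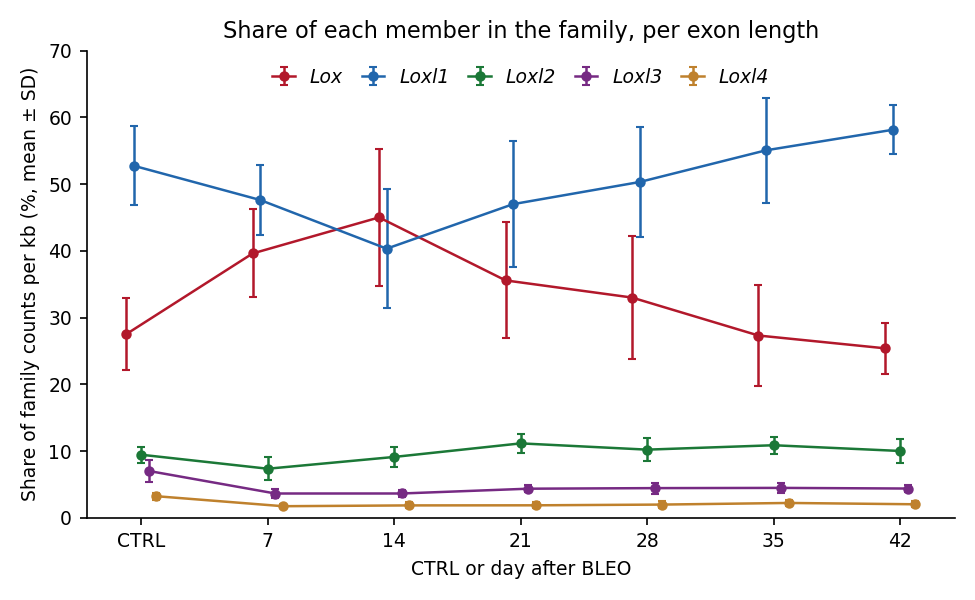
Share of each member in the family (percent of counts per kilobase of merged exons, mean ± SD over mice) in CTRL and on the 6 days after BLEO. *Lox* goes from 27.5% in CTRL to 45.02% on day 14 and 25.4% on day 42, and *Loxl1* from 52.8% to 40.3% and 58.2%.

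Mice of the same group differed in how strongly they expressed the family, and over all groups together the members varied in the same direction, though not in every group. Correlations were computed over the 75 mice after subtracting the group mean of log2 CPM, with permutation of the mice within groups. All 10 pairs were positively correlated, from r = 0.58 for *Loxl1* and *Loxl4* to r = 0.83 for *Lox* and *Loxl3*, each with an adjusted permutation p of 1e-05, the smallest that 100000 resamples can give. Spearman's rho ranged from 0.53 for *Lox* and *Loxl4* to 0.73 for *Lox* and *Loxl3*, with adjusted permutation p-values of at most 3e-05. Without the 2 mice farthest from the median, r remained between 0.56 and 0.79. Within single groups, all 10 pairs had r above 0.5 on days 14, 21 and 28, and *Lox* and *Loxl3* had r = 0.94, 0.97 and 0.93 on these days. The other groups had lower values, given as a description. On day 7 the pairs ranged from r = -0.31 for *Lox* and *Loxl2* to 0.65 for *Loxl3* and *Loxl4*. On day 35 they ranged from -0.15 for *Lox* and *Loxl4* to 0.81 for *Lox* and *Loxl2*, with 0.06 for *Lox* and *Loxl1*. On day 42 they ranged from -0.22 for *Loxl1* and *Loxl4* to 0.72 for *Lox* and *Loxl1*, with -0.16 for *Loxl3* and *Loxl4*. CTRL mice had both signs as well. *Loxl1*, *Loxl2* and *Loxl4* were positively related there (r = 0.72 to 0.89), *Loxl3* was negatively related to these 3 (r = -0.75 to -0.40), and *Lox* had r between -0.38 and 0.17 with the other members. The CTRL replicates 1 to 5 and 6 to 10, set apart above by their *Loxl1* levels, enter these values, and their part in them was not tested. Replicates 1 to 5 and 6 to 12 of day 28, also set apart by *Loxl1*, enter the values of that day. Both splits enter the values over all groups, and their part there was not tested either.

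The substrates of the enzymes were set beside them in the same way, in 15 relations that were added after the data had been seen. *Loxl2* followed *Col3a1*, the main chain of type III collagen, with r = 0.91 and rho = 0.91 (n = 75, adjusted permutation p = 1e-05 for both, r = 0.91 without the 2 farthest mice), and r was between 0.80 and 0.98 in each of the 7 groups. Its r was 0.90 with *Col1a1*, a chain of type I collagen, and 0.76 with *Eln*, which encodes elastin. *Loxl1* had r = 0.77 with *Eln*, 0.75 with *Col3a1* and 0.74 with *Col1a1*. *Lox* had r = 0.78 with *Col1a1* and 0.69 with *Col3a1* over all groups, but -0.48 with *Col3a1* in CTRL mice and -0.23 on day 7. *Loxl3* had r = 0.89 with *Col1a1* over all groups, but -0.56 with *Col1a1*, -0.43 with *Col3a1* and -0.35 with *Eln* in CTRL mice. *Loxl4* had the lowest values, 0.53 to 0.59. Differences between these correlations were not tested. In CTRL mice, *Col1a1* lay above its group mean in replicates 1 to 5 and below it in replicates 6 to 10. These sets enter the values of the CTRL mice, and their part in them was not tested. The split of the day 28 mice by *Loxl1* enters the values over all groups as well, and its part was not tested.

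**Figure D4:**
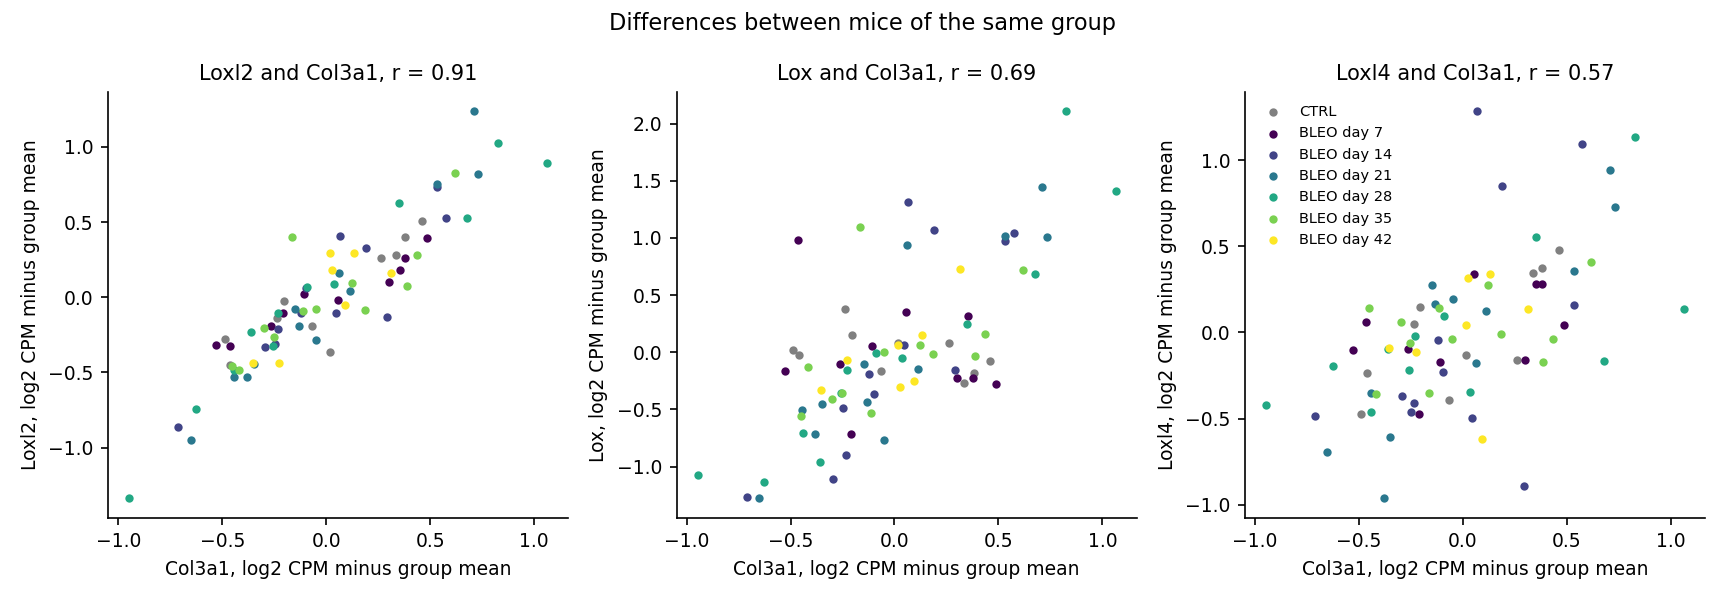
Log2 CPM minus the group mean of *Loxl2*, *Lox* and *Loxl4* (vertical axes) against that of *Col3a1* (horizontal axes), with 1 point per mouse colored by group. *Loxl2* lies close to a line (r = 0.91), whereas *Lox* (r = 0.69) and *Loxl4* (r = 0.57) scatter more.

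Of 13810 genes outside the family with a mean log2 CPM above 1, those most like each member within groups are given as a description over 75 mice. *Lox* was closest to *Serpina3n*, a secreted serine protease inhibitor (r = 0.95), *Calu*, a calcium-binding protein of the secretory pathway (r = 0.91), and *Enc1* (r = 0.91). *Loxl1* was closest to *Bgn*, the proteoglycan biglycan (r = 0.79), *Emilin1*, a glycoprotein of elastic fibers (r = 0.79), and *Pdzrn3* (r = 0.79). *Loxl2* was closest to *Col5a2* (r = 0.93) and *Col5a1* (r = 0.92), the chains of type V collagen, and to *Tnc*, which encodes tenascin C (r = 0.92). *Loxl3* was closest to *Cd248*, a surface protein of stromal cells (r = 0.93), *Fkbp10*, a chaperone of collagen (r = 0.91), and *Col1a2*, a chain of type I collagen (r = 0.90). *Loxl4* was closest to *Itga5*, the fibronectin receptor subunit (r = 0.83), *Lrrc59* (r = 0.82) and *Hdlbp* (r = 0.80). These values are over all groups, and 4 of the genes had a negative r in at least 1 single group. The lowest was -0.44 for *Col1a2*, -0.29 for *Fkbp10* and -0.18 for *Cd248* with *Loxl3*, and -0.14 for *Calu* with *Lox*.

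The genes around the family were described by 11 lists with 94 genes, of which 91 were tested. On day 14, 68 of the 91 were upregulated and 15 downregulated, against 32.4% and 29.9% of all genes. By day 42 the numbers were 32 and 13, against 13.7% and 11% of all genes. Levels in the following are means ± SD over the 10 CTRL mice, the 12 mice of day 14 and the 7 mice of day 42. The fibrillar collagens, the main substrates, had 10 of 10 tested genes upregulated on day 14, with a median log2FC of 2.91 (0.01 over all genes tested), and 5 of 10 on day 42, with a median of 0.90. *Col1a1* rose from 331 ± 73 to 2472 ± 1163 CPM by day 14 (log2FC 2.90 ± 0.33), and *Col3a1* from 648 ± 154 to 3633 ± 919 CPM (log2FC 2.49 ± 0.19). On day 42 *Col3a1* remained upregulated (log2FC 1.04, adjusted p = 7.59e-05) and *Col1a1* did not pass (log2FC 0.70, adjusted p = 0.133). The largest increases of the list on day 14 were those of the minor fibrillar collagens *Col11a1*, at 0.127 ± 0.124 CPM in CTRL and 8.16 ± 7.14 CPM on day 14, and *Col24a1*, at 0.459 ± 0.235 and 8.11 ± 3.49 CPM. *Col11a1* had at most 4 counts in a CTRL library, so that no fold change is given for it. Of the 6 chains of type IV collagen, the collagen of basement membranes, 5 were upregulated on day 14 and 1 was downregulated. *Col4a1* increased by 1.61 ± 0.16 and *Col4a2* by 1.37 ± 0.15 on the log2 scale, while *Col4a6* fell by 0.66 on the log2 scale (SE 0.16).

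The list of elastic fiber substrates and scaffolds had 13 of 16 genes upregulated and 3 downregulated on day 14. Its median log2FC was 0.82. *Eln* had the largest increase of the list, from 154 ± 24 to 4498 ± 2477 CPM by day 14 (log2FC 4.87 ± 0.41, adjusted p = 8.67e-16), and was at 894 ± 575 CPM on day 42 (log2FC 2.54, adjusted p = 1.53e-06). *Fbn2*, a fibrillin of developing microfibrils, had 0.786 ± 0.488 CPM in controls, 6.22 ± 3.23 CPM by day 14 (log2FC 2.96 ± 0.57) and 0.823 ± 0.822 CPM by day 42. The fibulins that bring lysyl oxidases and tropoelastin together changed little or moderately. *Fbln5* had a log2FC of -0.13 on day 7 (adjusted p = 0.244), 0.47 ± 0.09 on day 14 (adjusted p = 6.17e-06) and 0.33 on day 42 (adjusted p = 0.0123), and *Efemp2*, or fibulin 4, had 0.91 ± 0.09 on day 14 (adjusted p = 7.54e-13). *Ltbp4*, an elastogenic binding protein of latent TGF-β, fell from 1039 ± 99.8 to 510.5 ± 68.7 CPM on day 14 (log2FC -1.03 ± 0.12).

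Among the 9 tested genes for activation and docking of lysyl oxidases, 6 were upregulated and 1 was downregulated on day 14, with a median log2FC of 0.47. *Bmp1*, the protease that cleaves the Lox proenzyme, went from 81.3 ± 10.9 to 170 ± 39 CPM (log2FC 1.06 ± 0.13, adjusted p = 1.28e-10). *Fn1*, which encodes fibronectin, a binding partner of lysyl oxidase, increased by 3.32 ± 0.36 on the log2 scale, and the procollagen protease *Adamts2* by 1.93 ± 0.15. *Pcolce2*, an enhancer of procollagen cleavage, fell from 370 ± 29 to 118 ± 46 CPM (log2FC -1.65 ± 0.26). Of the 8 genes for copper handling, 4 were upregulated and 2 downregulated on day 14. The increases were led by the metallothioneins *Mt2* (log2FC 4.28 ± 0.52) and *Mt1* (2.54 ± 0.34), which bind copper and zinc and are known to respond to many stresses. *Atp7a*, the pump that loads copper into secreted enzymes, had 53.2 ± 6.6 and 53.8 ± 12.8 CPM in the controls and by day 14 (log2FC 0.02 ± 0.14, adjusted p = 0.926), and was lower on day 42 (log2FC -0.49, adjusted p = 0.0213). The sign of its day 14 value was negative when the libraries were scaled by their totals (-0.0096) or by upper quartiles (-0.017). *Atp7b*, the second copper pump, fell by 1.51 on the log2 scale on day 14 (SE 0.15).

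**Figure D5:**
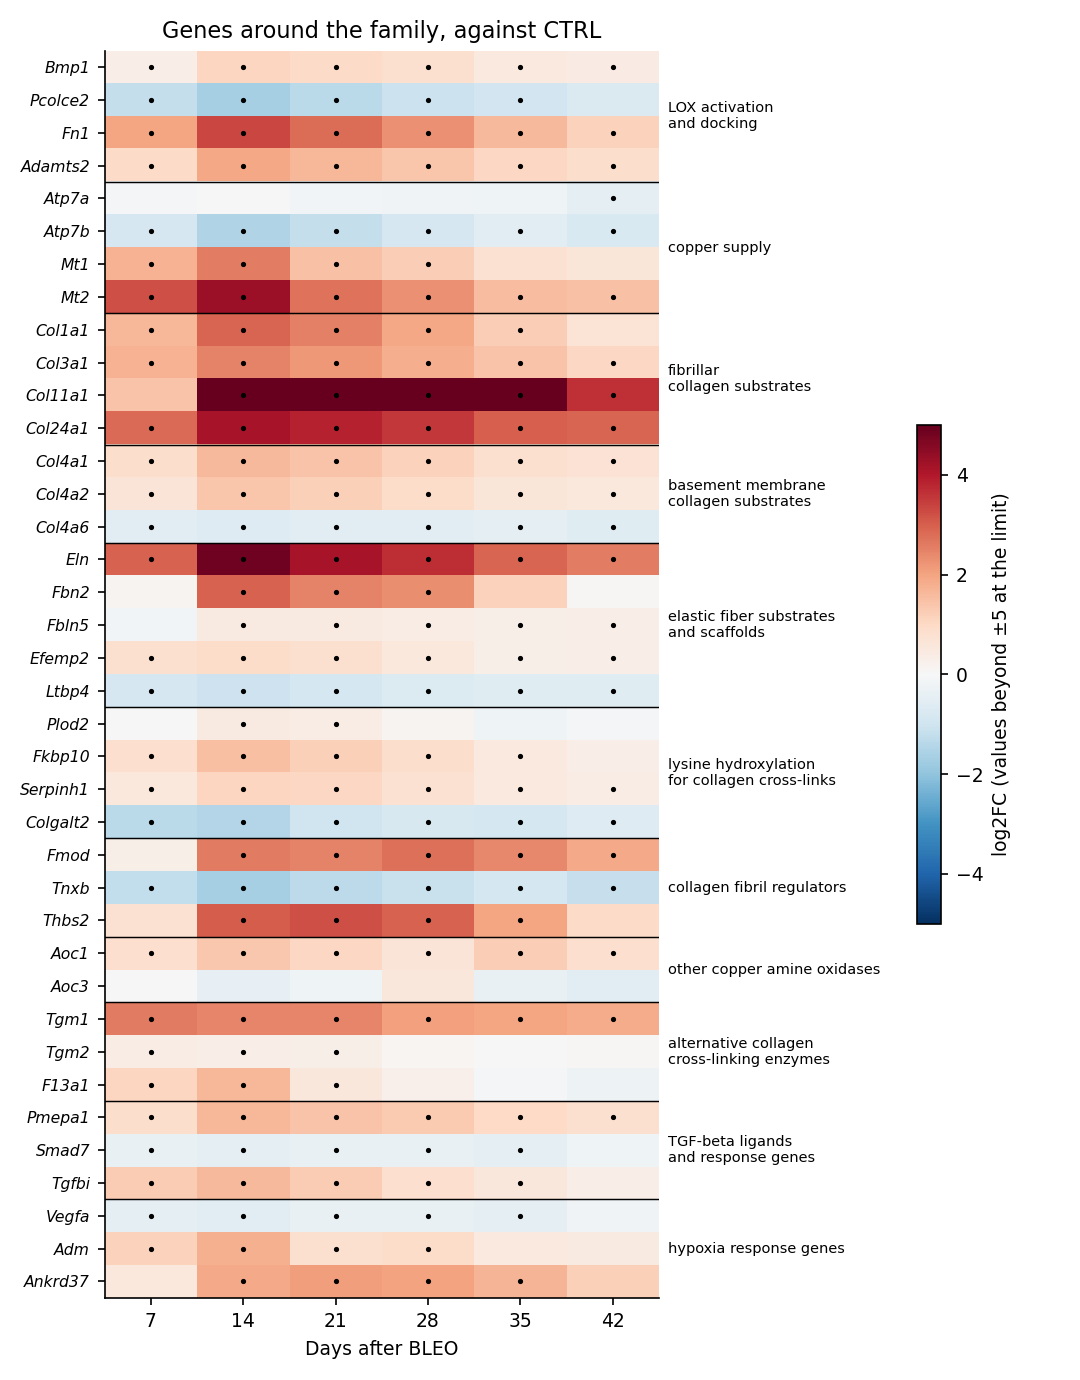
Log2FC against CTRL on days 7 to 42 (color, values beyond ±5 at the limit) for the named genes around the family, grouped by list, with a dot where the adjusted p was under 0.05. *Eln* reaches 4.87 on day 14, whereas *Atp7a* is at 0.02 and *Plod2* at 0.44.

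Lysine hydroxylation in collagen sets which cross-links can form, and of its 9 genes 8 were upregulated and 1 was downregulated on day 14, with a median log2FC of 0.46. *Plod2*, the lysyl hydroxylase of collagen telopeptides, went from 82.2 ± 8.8 to 111 ± 12 CPM by day 14 (log2FC 0.44 ± 0.09, adjusted p = 5.3e-05). On day 42 it had a log2FC of -0.11 (adjusted p = 0.505). The collagen chaperones *Fkbp10* and *Serpinh1* increased by 1.502 ± 0.168 and 1.06 ± 0.12, and the collagen galactosyltransferase *Colgalt2* fell by 1.46 on the log2 scale (SE 0.19). Of 9 regulators of collagen fibrils, 6 were upregulated and 2 downregulated. *Thbs2*, encoding thrombospondin 2, and the proteoglycan fibromodulin (*Fmod*) had log2FC of 3.02 ± 0.53 and 2.59 ± 0.38, and tenascin X (*Tnxb*) fell by 1.65 on the log2 scale (SE 0.25). *Fmod* was still upregulated on day 42 (log2FC 1.91, adjusted p = 0.000363).

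Of the other copper amine oxidases, 1 of 3 was upregulated on day 14 and the remainder did not pass. *Aoc1*, a diamine oxidase, went from 4.53 ± 1.19 to 11.4 ± 4.2 CPM (log2FC 1.34 ± 0.19), and *Aoc3*, the vascular amine oxidase, had 8.00 ± 1.39 and 6.06 ± 1.46 CPM (log2FC -0.40 ± 0.28, adjusted p = 0.212). *Aoc3* passed the test on day 14 with DESeq2 (log2FC -0.41, adjusted p = 0.0137), and also without BLEO day 28 replicate 10 (log2FC -0.40, adjusted p = 0.0135). The cross-linking enzymes outside the family, 2 transglutaminases and coagulation factor XIII, were all upregulated on day 14. *Tgm1* had a log2FC of 2.44 ± 0.26, *F13a1* of 1.67 ± 0.25 and *Tgm2*, the abundant transglutaminase at 589 ± 62 CPM in CTRL, of 0.34 ± 0.08. *Tgm1* alone of these was called on day 42 (log2FC 1.87, adjusted p = 9e-07).

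TGF-β and hypoxia are known to act on genes of the family. Of 8 TGF-β ligands and response genes 7 were upregulated and 1 was downregulated on day 14, with a median log2FC of 0.89. The feedback regulator *Pmepa1* increased by 1.67 ± 0.20 and *Tgfbi*, which encodes an extracellular matrix protein induced by TGF-β, by 1.61 ± 0.19, while the inhibitory *Smad7* fell by 0.48 on the log2 scale (SE 0.09). Of 10 hypoxia response genes, 5 were upregulated and 4 downregulated, with a median log2FC of 0.14. *Ankrd37* and *Adm* increased by 1.90 ± 0.44 and 1.77 ± 0.32, and *Vegfa* fell by 0.54 on the log2 scale (SE 0.12).

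Marker genes of cell types were called on day 14 as well, in directions that differed between the types. Of all genes tested, 32.4% were upregulated and 29.9% downregulated on that day. All 6 myofibroblast markers were upregulated on day 14, and their summed level went from 429 to 511 CPM in CTRL mice to 756 to 1963 CPM on day 14 and 457 to 643 CPM on day 42. Of 7 macrophage markers 6 were upregulated on day 14, with sums of 180 to 268 CPM in CTRL and 1208 to 8671 CPM on day 14, and still 376 to 3191 CPM on day 42. Of 8 markers of resting fibroblasts, 2 were upregulated and 4 downregulated, with sums of 3523 to 4377 CPM in CTRL and 1500 to 2598 CPM on day 14. Of 6 lung epithelial markers 5 were downregulated. Endothelial and lymphocyte markers each had 4 of 6 downregulated, smooth muscle markers had 2 of 6 upregulated and 3 downregulated, and mesothelial markers had 1 of 5 in each direction. Neutrophil markers had 2 of 4 tested genes upregulated, but the median of their sum was 52.2 CPM in CTRL and 43.4 CPM on day 14. The sums ranged from 21.9 to 78.9 CPM in CTRL and from 24.6 to 470 CPM on day 14. No marker of lung epithelium was at 3 counts or less in every library of a group. The part of these cell types in the change of the family was not tested. Per the study's methods, lavage fluid was collected by rinsing the lung with saline before excision. Cells washed out in this way do not enter these sums.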

How the data were processed

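Gene counts of 75 mouse lung libraries were analysed as deposited. Per the labels and the study's methods, the authors prepared stranded libraries from polyadenylated RNA, sequenced them as single-end reads of 75 bases and aligned them with STAR 2.7.0f to GRCm38 with Ensembl release 96. The deposited counts are whole numbers per gene and mouse. The counting program, its strand setting and its treatment of multiply mapped reads are not given in the sources used here.

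Genes were filtered with filterByExpr, libraries were scaled by TMM, and a quasi-likelihood model with 7 groups was fitted with edgeR 4.0.16 in R 4.3.3. The Benjamini-Hochberg method was applied over the 16221 genes tested in each comparison, with a threshold of 0.05. DESeq2 1.42.0 served as an alternative test. Ratios of members used counts with a pseudocount of 0.5, and correlations used log2 CPM with a prior count of 2. Permutation tests drew 100000 resamples with scipy 1.17.1, or were exact for day 42, and adjustment was over 60 ratios, 10 member pairs and 15 substrate relations. Coding sequences were aligned with MAFFT 7.526. Scripts were tested on simulated data.

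The 5 members, the gene lists and the marker lists were chosen with earlier results of these data known. Named genes are all members and, per list, the called genes with the 2 largest increases and the 1 largest decrease on day 14, plus *Bmp1*, *Atp7a*, *Eln*, *Plod2*, *Fbln5*, *Efemp2*, *Col1a1*, *Col3a1*, *Aoc3* and *Tgm2*. The 3 genes closest to each member by r were named as well. One gene of the lists is not reported here. *Htra2* was named for its overlap with *Loxl3*. Neither the labels nor the methods name a sequencing batch. Alternatives were 2 other scalings, 2 other filters, DESeq2, a robust fit, fits of only the 2 groups compared, a replicate block, a fold change minimum, other pseudocounts, medians and other gene lengths. The substrate relations and the fits without 2 libraries that stood apart were added after the data had been seen. Total counts per library set the counting precision, and the lowest count of a member in a library was 49, for *Loxl4*.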

Additional observations from a re-analysis of the deposited data

Results flagged for a closer look

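For the 5 members in CTRL, on day 7 and on day 42, 15 sets of values in all, a Dixon test at the 95% level singled out 2 mice, where chance gives about 1 in 20 groups. The highest *Lox* level of day 7, 452 CPM in replicate 5, lay 0.515 of the range of its group away from the next mouse (critical value 0.466). The highest *Lox* level of day 42, 181 CPM in replicate 7, lay 0.633 of the range away (critical value 0.568). The 4 other members had no such mouse in these 15 sets. The groups of 12 mice were not tested. On day 35, a group not tested, the highest *Loxl3* level was 34.03 CPM (replicate 6) and the next 21.7 CPM (replicate 12).

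The effect of BLEO against CTRL differed between days for all 5 members, in the same comparisons between days as given above. Of all genes tested, 17% were called between day 7 and day 14, and 34% between day 14 and day 42. The log2FC of day 14 exceeded that of day 7 by 1.13 for *Lox*, 0.50 for *Loxl1*, 1.15 for *Loxl2*, 0.83 for *Loxl3* and 1.00 for *Loxl4*, with the highest adjusted p at 0.00874 (edgeR). The difference of day 42 minus day 14 was -2.22 for *Lox*, -0.67 for *Loxl1*, -1.11 for *Loxl2*, -0.99 for *Loxl3* and -1.23 for *Loxl4*, with the highest adjusted p at 0.000717 (edgeR).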

How the results depend on the processing

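The numbers of members called against CTRL and between days stayed within 1.5 times their value under all alternatives run, except in fits of only the 2 groups compared, which called 5 members for day 7 (53.7% of all genes called in that fit), 5 for day 35 (37.1%) and 4 for day 42 (39.8%). The adjusted p of *Lox* on day 42 ranged from 2.06e-05 in that fit to 0.126. Equal replicate numbers did not pair the mice, as same-numbered mice of different groups had a median correlation of 0.0057 over 204 pairs, against 0.0018 in other pairs, and the replicate block changed no call of a member. The correlation check set equal numbers against all others. It cannot show a split between low and high numbers, such as that of *Loxl1* in CTRL and on day 28. Signs turned only in values that did not pass. The log2FC of *Loxl1* from day 35 to day 42 was -0.0020 with library size scaling, -0.00096 with upper quartile scaling and -0.11 with the replicate block. *Atp7a* on day 14 had -0.0096, -0.017 and -0.011 under these 3 settings and -0.0067 with a minimum of 10 counts in every mouse. With medians, the difference of *Lox* to *Loxl2* on day 28 was -0.024 and that of *Loxl3* to *Loxl4* on day 35 was 0.0094. *Loxl1* had the largest share of the family in 5 CTRL mice with the median transcript length. On day 42, 5 named genes around the family lost their call without a filter, namely *Bmp1*, *Mt2*, *Col11a1*, *Serpinh1* and *Colgalt2* (adjusted p = 0.0572, 0.0630, 0.0889, 0.0553 and 0.0561, edgeR), 2 with the replicate block, *Bmp1* and *Col11a1* (adjusted p = 0.0529 and 0.0608, edgeR), and *Serpinh1* without CTRL replicate 9 (adjusted p = 0.0522, edgeR). The cause of these changes was not tested. Depth limits *Loxl4*, with as few as 49 counts in a library.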
